A study of Mus musculus with 16 samples.

Results

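The 9 genes described here encode the endopeptidases and exopeptidases, other than trypsin, that the exocrine pancreas secretes: the elastases *Cela1*, *Cela2a*, *Cela3a* and *Cela3b*, the chymotrypsins *Ctrb1*, *Ctrc* and *Ctrl*, and the carboxypeptidases *Cpa1* and *Cpb1*. They were taken from the count tables by symbol, 9 of 24411 genes, by a rule that uses no measured value, although the rule was set with earlier results of these data known. RNA was sequenced from the whole pancreas of 16 male C57BL6/J mice aged 12 weeks, 1 library per mouse. There were 5 lean wild-type (WT) mice, 7 Lep(ob/ob) mice, which lack leptin and are obese, and 4 Lep(ob/ob) mice that drank an antagonist of the cholecystokinin (CCK) receptors for 6 weeks from the age of 6 weeks (CCKRi). Of the CCKRi mice, 2 received proglumide at 0.1 mg/ml and 2 received lorglumide at 0.05 mg/ml, while the WT and untreated Lep(ob/ob) mice drank control water. Body weight averaged 27.7 ± 3.22 g (SD, n = 5) in WT, 51.0 ± 1.98 g (n = 7) in Lep(ob/ob) and 54.8 ± 2.22 g (n = 4) in CCKRi mice. The labels assign 3 WT and 4 Lep(ob/ob) mice to a first batch (A) and 2 WT, 3 Lep(ob/ob) and all 4 CCKRi mice to another (B). By the labels, WT animals came from in-house breeding and obese ones from a supplier, whereas the methods of the study name a supplier for both. Where the labels hold, genotype and origin cannot be told apart. No WT mouse received an antagonist.

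Acinar cells make these enzymes as inactive zymogens, store them in granules and release them when CCK or acetylcholine acts on the cell. In the duodenum trypsin cuts off the propeptides, after which elastases and chymotrypsins cut within dietary proteins and carboxypeptidases remove residues from the carboxyl end. Elastases cut after small or medium-sized hydrophobic residues and chymotrypsins after aromatic or large hydrophobic ones. CPA1 removes aromatic and aliphatic residues and CPB1 removes lysine and arginine. *Ctrc* differs from the other members in C57BL/6 mice, because this strain carries a frameshifting deletion in it. RefSeq accordingly lists mouse *Ctrc* as a transcribed pseudogene with 0 coding transcripts, and its reads measure a transcript rather than an enzyme.

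Gene counts summed to 19.2 to 34.5 M per batch A library (M, units of 1000000 counts) and 9.87 to 15.9 M per batch B library. The 50 most counted genes took 79.2 to 85.0% of these sums in the former and 49.3 to 77.1% in the latter, so the batches differed in depth and in how far the acinar transcripts filled the library. The tissue label held, since 7 of the 9 members were among the 14 most counted genes of WT mice. Reads of other cell types also differed between groups. Islet markers made up 0.0854 to 0.194% of the WT libraries, 0.321 to 0.963% of the Lep(ob/ob) ones and 0.337 to 1.77% of the CCKRi ones. For Lep(ob/ob) against WT, 5 of 8 rose, led by the islet hormone genes *Iapp* (log2 fold change 2.81), *Ppy* (2.59) and *Ins2* (2.49). Adipocyte markers summed to 0.00266 to 0.0170%, 0.00479 to 0.247% and 0.0240 to 0.252% in the same order, with 0 of 6 called by edgeR in Lep(ob/ob) against WT and 4 at an unadjusted p under 0.05. The mice Lep(ob/ob) 463 and CCKRi 69 had the highest adipocyte sums, and Lep(ob/ob) 417 and 461 belonged with them to the 4 mice that an earlier look at these data had set apart on such markers. As a percent of counts they were not the 4 highest, since CCKRi 72 (0.0530%) lay above 461 (0.0443%) and 417 (0.0399%). In bulk tissue, fewer acinar cells and less RNA per acinar cell cannot be told apart.

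Most members lie apart in the genome, but 2 pairs share sequence or position, which bears on how their reads were assigned. Coordinates are on GRCm38 (mm10) with GENCODE vM21 gene models. *Cela3a* (ENSMUSG00000078520, chr4:137401554-137409791, minus strand, 8 exons) and *Cela3b* (ENSMUSG00000023433, chr4:137420999-137430540, minus strand, 8 exons) are neighbors 11207 bases apart with 0 annotated genes between them. Their coding sequences were identical at 759 of 807 aligned bases (94.1%), against 69.8 to 75.8% for the other elastase pairs, 73.1 to 73.3% for the chymotrypsin pairs and 71.6% for *Cpa1* with *Cpb1*. Of all 50-base stretches of the *Cela3a* transcript, 311 of 909 (34.2%) also occurred in *Cela3b*, and of all 100-base stretches, the length of 1 read of a pair, 104 of 859 (12.1%). A read from the remaining stretches could be told apart. The stretch of 60 coding bases in which the genes differ most is shown because it is where a read separates them. It covers coding bases 220 to 279 over exons 3 and 4, at chr4:137405661-137405840 for *Cela3a* and chr4:137424866-137425045 for *Cela3b*, and capitals mark the 10 bases that differ (GENCODE vM21, GRCm38, 5′ to 3′ on the minus strand).
Cela3a: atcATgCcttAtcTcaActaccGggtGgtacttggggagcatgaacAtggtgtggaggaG
Cela3b: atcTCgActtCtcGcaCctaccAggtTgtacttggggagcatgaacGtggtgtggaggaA

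The likeness of *Cela3a* and *Cela3b* went on upstream of the genes, which is shown because their read counts differed by several orders of magnitude. A stretch of 230 bases upstream of the start sites aligned with 0 gaps and was identical at 214 bases (93.0%). It lies 8 to 237 bases before the RefSeq start of *Cela3a* (chr4:137409799-137410028) and 21 to 250 bases before the RefSeq start of *Cela3b* (chr4:137430541-137430770), both on the minus strand. The RefSeq start of *Cela3b* differs from that of the GENCODE gene given above, which begins at 137430540, next to the stretch. Capitals mark the 16 bases that differ (RefSeq, GRCm38.p6, 5′ to 3′).
Cela3a: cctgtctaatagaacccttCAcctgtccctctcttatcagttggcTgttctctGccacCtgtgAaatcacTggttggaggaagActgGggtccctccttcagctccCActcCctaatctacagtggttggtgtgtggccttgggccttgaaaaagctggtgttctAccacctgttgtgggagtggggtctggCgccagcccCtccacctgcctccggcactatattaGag
Cela3b: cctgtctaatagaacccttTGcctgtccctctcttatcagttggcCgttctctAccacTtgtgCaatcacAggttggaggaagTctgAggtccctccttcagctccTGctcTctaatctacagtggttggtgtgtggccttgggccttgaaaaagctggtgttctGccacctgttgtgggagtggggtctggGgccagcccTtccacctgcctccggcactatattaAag

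RefSeq gave a promoter for 8 of the 9 members, and 5 motifs were looked for on both strands in the 250 bases before the start. The E-box CANNTG, the general site of the acinar factors PTF1A and MIST1, occurred in 66.2% of 32851 promoters and in each of the 8, with 5 matches for *Cela3a*, 4 for *Cela3b*, 5 for *Cela1*, 4 for *Ctrl*, 2 each for *Cela2a* and *Cpb1*, and 1 each for *Ctrb1* and *Cpa1*. The narrower form CACCTG, always also a CANNTG, occurred in 17.2% of promoters, with 4 matches for *Cela3a*, 2 for *Cela3b* and *Ctrl*, 1 for *Cela1*, *Cela2a* and *Cpb1*, and 0 for *Ctrb1* and *Cpa1*. TGGGAA, the core bound by RBPJ and RBPJL, occurred in 21.6% of promoters and once each in *Cela2a*, *Cela3a*, *Ctrb1*, *Ctrl* and *Cpa1*. TATATT (8.24% of promoters) was present in both *Cela3a* and *Cela3b* and TATAAA (12.4%) in *Cela1* alone. These matches describe the letters and say nothing about binding.

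The other members were located at chr15:100674421-100687921 (*Cela1*), chr4:141814962-141826160 (*Cela2a*), chr8:111686519-111691010 (*Ctrb1*), chr4:141814962-141846359 (*Ctrc*), chr8:105932003-105933862 (*Ctrl*), chr3:20248264-20275733 (*Cpb1*), all on the minus strand, and chr6:30639218-30645363 (*Cpa1*, plus strand). The annotated gene of *Ctrc* spans *Cela2a* through a long readthrough transcript subject to nonsense-mediated decay. That transcript contains 211 of 971 (21.7%) of the 100-base stretches of *Cela2a*, whereas the main transcripts lie 12083 bases apart and share 0 exonic bases. Another 46 of the 1021 50-base stretches of *Cela2a* also occurred in *Casp9* on the opposite strand. Reads from these overlaps could have been dropped or assigned to another gene, and the counting rule is not given in the sources used here. Of the other 5 members, 0 shared a 50-base stretch with any other gene.

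Levels of the 9 genes spanned several orders of magnitude. Per kilobase of the main transcript, WT mice had 1.77 ± 1.15 M normalized counts (SD, n = 5) for *Ctrb1*, 1.60 ± 0.751 M for *Cela2a* and 1.45 ± 0.339 M for *Cela1*. This order held in the 3 WT mice of batch A, whereas both WT mice of batch B had *Cela1* above *Cela2a* above *Ctrb1* (means of 1.12, 0.796 and 0.527 M per kilobase). *Cpa1* (0.697 M per kilobase), *Ctrl* (0.646 M), *Cela3b* (0.475 M) and *Cpb1* (0.470 M) followed, and *Cela1* exceeded *Cpa1* in 5 of 5 mice. *Ctrc* (9154 per kilobase) and *Cela3a* (322 per kilobase) stood far below, in 5 of 5 mice each below the gene before. Untreated Lep(ob/ob) mice were split by batch as well, with *Ctrb1* above *Cela2a* above *Cela1* in 4 of 4 mice of batch A, and in batch B with *Cela1* above *Cela2a* in 3 of 3 and *Ctrb1* above *Cela2a* in 2 of 3. The CCKRi mice, all of batch B, had *Cela1* (0.689 M per kilobase) above *Cela2a* (0.432 M) above *Ctrb1* (0.293 M) in 4 of 4 mice, the order of the WT mice of that batch. *Cela3b*, *Cpb1*, *Ctrl* and *Cpa1* lay between 0.171 and 0.182 M there, and their order differed between mice.

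**Figure D1:**
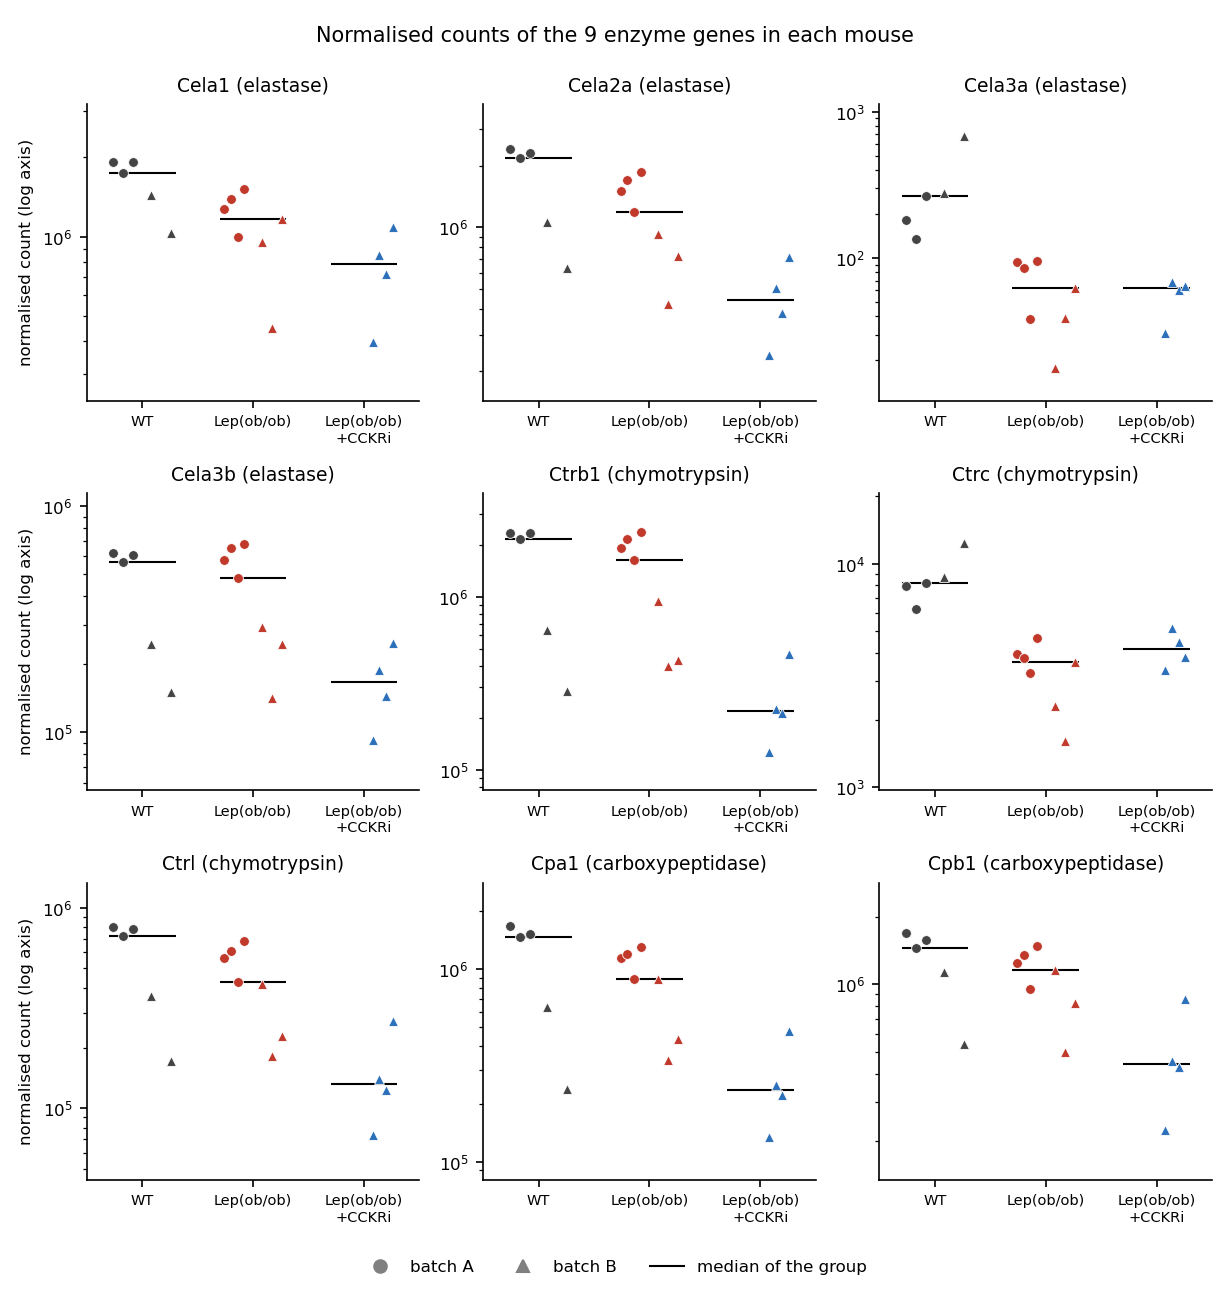
Normalized count (log axis) of each of the 9 genes in each of 16 mice, by group, with circles for batch A, triangles for batch B and a line at the group median. *Cela3a* and *Ctrc* are the 2 genes whose Lep(ob/ob) points all lie under the WT points, as do those of 1.22% of all genes, and the triangles of *Ctrb1*, *Cela3b*, *Cpa1*, *Cela2a* and *Ctrl* lie under nearly all circles.

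The first question was how obesity through loss of leptin altered each enzyme transcript. Of the 9 members, 2 fell in Lep(ob/ob) against WT at an adjusted p under 0.05, *Cela3a* and *Ctrc*, and 0 rose. Over all 13660 genes tested, 3.14% were called lower and 5.93% higher. The test was edgeR's quasi-likelihood test on all 16 mice with batch as a covariate and Benjamini-Hochberg adjustment over all genes. At an unadjusted p under 0.05 edgeR gave the same 2 lower and 0 higher, against 23.8% of all genes in either direction. DESeq2 with the same covariate called these 2 lower and 0 higher, against 4.61% of all genes lower and 7.8% higher in that fit, and had 3 lower and 0 higher at an unadjusted p under 0.05, against 24.6% of all genes in either direction. The median log2 fold change was -0.25 over the 9 members and -0.02 over all genes tested. The 7 members that fill the secretory product ranged from -0.53 to 0.06 on the log2 scale, with standard errors of 0.28 to 0.38.

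Among the elastases, *Cela3a* had the fewest reads. Its normalized counts were 183, 135 and 266 in the WT mice of batch A and 279 and 679 in those of batch B. The Lep(ob/ob) mice had 93.9, 85.6, 38.2 and 95.5 in batch A and 17.6, 38.8 and 62.0 in batch B. The 7 Lep(ob/ob) values all lay under the lowest WT value, as for 1.22% of 11198 genes with at least 10 counts in every mouse. The medians were 62.0 (n = 7) in Lep(ob/ob) and 266 (n = 5) in WT. The Lep(ob/ob) mean was 61.7 ± 31.0 (SD, n = 7), 0.200 times the WT mean. These values rested on 115 to 628 reads per WT mouse and 13 to 117 per Lep(ob/ob) mouse. The log2 fold change was -2.29 (SE 0.43, edgeR adjusted p = 0.00273). It was -1.29 within batch A (adjusted p = 0.0319) and -3.62 within batch B (adjusted p = 0.0449), the WT mean being 2.49 times the Lep(ob/ob) mean in A and 12.1 times in B (7.07 times without WT mouse 59). The interaction of genotype and batch was -2.32 (SE 0.65, unadjusted p = 0.00344, edgeR adjusted p = 0.344), and edgeR called 0 of 14221 genes for that term (1687 at an unadjusted p under 0.05), while DESeq2 called 51, 0 of them members. Without the 4 mice set apart on adipocyte markers, the *Cela3a* difference was -1.59 (edgeR adjusted p = 0.00231).

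*Cela3a* and its neighbor did not move together. *Cela3b*, the main elastase 3 of the mouse pancreas, had 0.624, 0.568 and 0.610 M normalized counts in batch A and 0.246 and 0.151 M in batch B in WT mice. In Lep(ob/ob) mice it had 0.576, 0.652, 0.480 and 0.685 M in batch A and 0.291, 0.142 and 0.246 M in batch B. The groups overlapped in both batches, and the log2 fold change was 0.06 (SE 0.28, edgeR adjusted p = 0.924). Per 1000000 *Cela3b* reads there were 238 to 436 *Cela3a* reads in the first WT batch, 1134 and 4496 in the other, 60.5 to 274 in untreated obese mice and 258 to 417 under CCKRi. *Cela3a* was so much rarer that a small share of misplaced *Cela3b* reads would weigh on it, and the part of such reads in its counts was not tested.

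*Cela1* and *Cela2a*, the abundant elastases, had smaller differences. *Cela1* had 1.92, 1.74 and 1.91 M normalized counts in the WT mice of batch A against 1.27, 1.40, 0.998 and 1.51 M in Lep(ob/ob), so the groups did not overlap there, as for 11.1% of all genes and for 6 of the 9 members. In batch B they did, with 1.44 and 1.03 M in WT and 0.957, 0.449 and 1.16 M in Lep(ob/ob). *Cela2a* showed the same arrangement, with 2.16 to 2.39 M in WT against 1.19 to 1.86 M in Lep(ob/ob) in batch A, and 0.636 and 1.07 M against 0.424 to 0.924 M in batch B. The log2 fold changes of -0.53 (SE 0.32, adjusted p = 0.331) for *Cela1* and -0.46 (SE 0.32, adjusted p = 0.418) for *Cela2a* did not pass in edgeR.

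Among the chymotrypsins, *Ctrc* was the member that changed. WT mice had 7961, 6291 and 8166 normalized counts in batch A and 8743 and 12368 in batch B. Lep(ob/ob) mice had 3951, 3767, 3232 and 4662 in batch A and 2317, 1614 and 3624 in batch B. Each Lep(ob/ob) value was under each WT value, and the log2 fold change was -1.43 (SE 0.24, edgeR adjusted p = 0.00115). Within batch A it was -0.89 (adjusted p = 0.00235), and within batch B it was -2.09 but did not pass (edgeR adjusted p = 0.108). The WT mean was 1.91 times the Lep(ob/ob) mean in batch A and 4.19 times in batch B, and the interaction with batch was -1.17 (SE 0.41, edgeR adjusted p = 0.387). Without the 4 mice set apart on adipocyte markers the difference was -1.05 (edgeR adjusted p = 0.000298).

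*Ctrb1*, which makes the major chymotrypsinogen, gave no such difference. It had 2.16 to 2.34 M normalized counts in WT and 1.63 to 2.38 M in batch A Lep(ob/ob) mice, and 0.285 and 0.640 M against 0.398 to 0.946 M in batch B, with a log2 fold change of 0.03 (SE 0.37, edgeR adjusted p = 0.977). *Ctrl*, which makes a chymotrypsin-like protease, had 0.723 to 0.799 M in WT and 0.427 to 0.679 M in batch A Lep(ob/ob) mice, where the groups did not overlap. In batch B its WT mice had 0.172 and 0.363 M and its Lep(ob/ob) mice 0.182 to 0.415 M, and the log2 fold change was -0.25 (SE 0.34, edgeR adjusted p = 0.696).

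For the carboxypeptidases the genotypes overlapped when both batches were read. *Cpa1* had 1.46 to 1.68 M normalized counts in WT and 0.889 to 1.30 M in batch A Lep(ob/ob) mice, without overlap, but 0.238 and 0.635 M against 0.338 to 0.890 M in batch B. *Cpb1* had 1.45 to 1.69 M against 0.951 to 1.48 M in batch A and 0.540 and 1.13 M against 0.499 to 1.16 M in batch B. The log2 fold changes were -0.15 (SE 0.38, edgeR adjusted p = 0.851) for *Cpa1* and -0.21 (SE 0.35, adjusted p = 0.765) for *Cpb1*.

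Batch moved more members than genotype did. In the same edgeR fit 5 of 9 members were lower in batch B than in A, where 17.7% of all genes were called lower and 18.1% higher. edgeR called *Ctrb1* at -1.99 (SE 0.39, adjusted p = 0.00147), *Cela3b* at -1.49 (adjusted p = 0.00151), *Cpa1* at -1.36 (adjusted p = 0.014), *Cela2a* at -1.29 (adjusted p = 0.00844) and *Ctrl* at -1.25 (adjusted p = 0.0118), all as log2 differences. *Cpb1* (-0.73), *Cela1* (-0.60), *Ctrc* (-0.16) and *Cela3a* (0.12) did not pass. This term rests on the WT and untreated Lep(ob/ob) mice, which were in both batches, and averages over these groups. The WT mice of batch B lay above those of batch A for *Cela3a* (279 and 679 against 135 to 266) and *Ctrc* (8743 and 12368 against 6291 to 8166), whereas the Lep(ob/ob) values of batch B were lower on average.

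**Figure D2:**
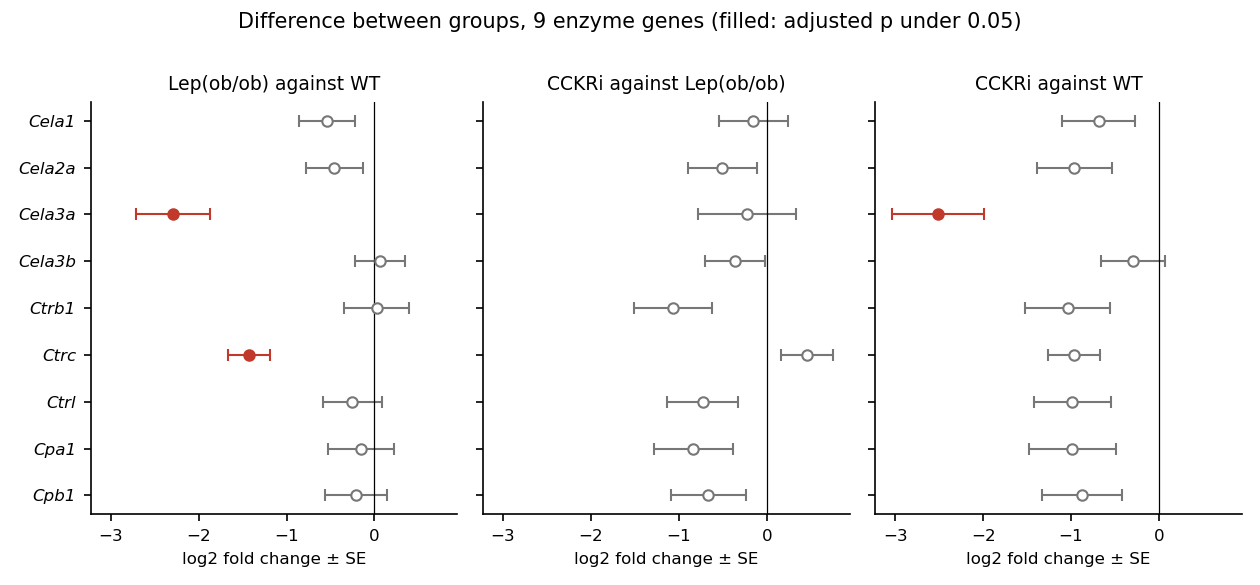
Log2 fold change with its standard error (horizontal axis) of each of the 9 genes in the 3 comparisons, from the edgeR fit with batch as a covariate, with filled points for an adjusted p under 0.05. *Cela3a* (-2.29) and *Ctrc* (-1.43) are filled for Lep(ob/ob) against WT, no gene is filled for CCKRi against Lep(ob/ob), and *Cela3a* (-2.51) is filled for CCKRi against WT.

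The next question was whether blocking the CCK receptors changed these transcripts in obese mice. Of the 9 members, 0 were called higher and 0 lower in CCKRi against untreated Lep(ob/ob) mice, where 0.0293% of 13660 genes were called in each direction. At an unadjusted p under 0.05 edgeR gave 1 member, *Ctrb1*, and 14.3% of all genes, while DESeq2 with batch gave 4 members and 15.5% of all genes. DESeq2 called 0 members, where it called 0.234% of all genes higher and 0.439% lower. The 4 CCKRi mice had 0.127, 0.225, 0.213 and 0.465 M normalized *Ctrb1* counts, against 0.946, 0.398 and 0.432 M in the untreated Lep(ob/ob) mice of batch B. The ranges overlapped, and the log2 fold change was -1.06 (SE 0.45, edgeR adjusted p = 0.315). The corresponding values were -0.84 for *Cpa1*, -0.73 for *Ctrl*, -0.66 for *Cpb1*, -0.51 for *Cela2a*, -0.36 for *Cela3b*, -0.22 for *Cela3a* and -0.15 for *Cela1*. *Ctrc* had a positive one of 0.46 (SE 0.30, edgeR adjusted p = 0.473). The median over the members was -0.51, against -0.01 over all genes. The normalized ranges of CCKRi and untreated Lep(ob/ob) mice overlapped for all 9 members, while 2.95% of 11198 genes with at least 10 counts in every mouse lay higher and 3.38% lower without overlap. As a percent of all counts, *Ctrc* alone did not overlap, with 0.0257 to 0.0445% in CCKRi and 0.0121 to 0.0236% in untreated Lep(ob/ob) mice. On that scale 12.5% of all genes lay higher without overlap, so 1 of 9 members is near the background. All CCKRi mice were of batch B, and adipocyte markers summed to 0.252% of counts in CCKRi mouse 69, which had the lowest CCKRi value of all 9 members, a link that was not tested. Without the 4 mice set apart on adipocyte markers, edgeR called 0 members, 0.0143% of all genes higher and 0.0571% lower, so that 0 of 9 is at the background. At an unadjusted p under 0.05 it gave 1 member and 6.17% of all genes, and the member median was -0.32.

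Against WT, 1 member was lower in CCKRi mice and 0 were higher, where 1.35% of all genes were called lower and 4.22% higher. This comparison shares the WT mice with the first and the CCKRi mice with the second. *Cela3a* had 30.7, 68.9, 60.4 and 64.4 normalized counts in the CCKRi mice (56.1 ± 17.3, SD, n = 4), each under the lowest WT value of 135, and a log2 fold change of -2.51 (SE 0.53, edgeR adjusted p = 0.00764). Without WT mouse 59, which held the highest value of 679, it was -1.67 (edgeR adjusted p = 0.0485). *Ctrc* had 3341, 5155, 4442 and 3840 normalized counts, all under the lowest WT value of 6291 (as for 6.14% of all genes), and a log2 fold change of -0.97 that did not pass in edgeR (SE 0.30, adjusted p = 0.0688) and did in DESeq2 with batch (-0.98, adjusted p = 0.0218). The others ranged from -0.30 (*Cela3b*) to -1.04 (*Ctrb1*), and 5 of 9 members had an unadjusted p under 0.05 in edgeR, against 16.7% of all genes. DESeq2 with batch called *Cela2a* as well (-0.97, adjusted p = 0.0377), 3 members in all, where it called 2.7% of all genes lower and 5.09% higher.

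The antagonists are related compounds, both being acyl glutamic acid dialkylamides. Lorglumide carries a dichlorinated benzoyl group and longer alkyl chains than proglumide. They were given at different doses, so their values stand side by side without a comparison. Against untreated Lep(ob/ob) mice the log2 fold changes with proglumide (2 mice) were -1.62 for *Ctrb1*, -1.33 for *Cpa1*, -1.24 for *Ctrl* and -1.20 for *Cpb1*, and with lorglumide (2 mice) -0.65, -0.46, -0.34 and -0.26. *Cela3a* had -0.41 with proglumide and -0.06 with lorglumide, and *Ctrc* had 0.47 and 0.44. For either compound edgeR called 0 members and 0% of all genes (0 of 14468 with proglumide and 0 of 14222 with lorglumide), so the counts of members called say nothing about these enzymes in particular. At an unadjusted p under 0.05 there were 4 of 9 members and 9.55% of all genes with proglumide, and 0 of 9 members and 16.3% of all genes with lorglumide. The proglumide mice included CCKRi 69, the mouse with the adipocyte sum of 0.252%.

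As a share of all counts, the 9 members together made up 33.5 ± 5.12% (SD, n = 5) for WT, 30.5 ± 5.01% (n = 7) for Lep(ob/ob) and 21.8 ± 4.88% (n = 4) for CCKRi. By batch the share was 35.97 to 37.7% in WT and 32.4 to 35.98% in batch A Lep(ob/ob) mice. The batch B shares were 25.4 and 31.6% for WT, 21.7 to 29.2% for untreated and 15.8 to 27.7% for treated Lep(ob/ob) mice. Only as a sum did the elastases separate the genotypes. Their share was 15.1 to 16.5% for WT, 9.05 to 14.7% for untreated and 8.92 to 13.8% for treated Lep(ob/ob) mice, so that each obese mouse lay under each WT mouse. As single genes, *Cela1*, *Cela2a* and *Cela3b* overlapped between WT and untreated Lep(ob/ob) mice on this scale. *Cela3a* lay lower without overlap, as for 0.357% of 11216 genes. In batch A *Cela3b* was higher in Lep(ob/ob), at 2.37 to 2.49% against 1.96 to 2.08%, as for 26.4% of those genes. The chymotrypsin sum did not separate the genotypes, with 9.88 to 10.7% in WT and 10.2 to 11.1% in batch A Lep(ob/ob) mice and 3.88 to 5.78% against 4.34 to 7.13% in batch B, while CCKRi mice had 2.50 to 4.95%. Carboxypeptidases took 10.4 to 10.6% in the WT and 9.07 to 10.1% in the Lep(ob/ob) animals of batch A. Their shares in batch B overlapped, at 6.44 and 10.1% for WT, 7.46 to 10.7% for untreated and 4.40 to 8.93% for treated Lep(ob/ob) mice.

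Among the other enzyme classes, amylase shares split by batch. Trypsinogen shares overlapped between the batches in WT mice and lipase shares did in Lep(ob/ob) mice. Batch B held all CCKRi mice. Trypsinogens made up 11.04 ± 1.30%, 10.5 ± 1.35% and 8.10 ± 1.90% of counts for WT, Lep(ob/ob) and CCKRi, and lipases with colipase 17.9 ± 2.85%, 20.0 ± 2.41% and 15.5 ± 2.74%. In batch A the trypsinogen shares were 11.3 to 12.0% for WT and 11.2 to 11.5% for Lep(ob/ob). The lipase shares of batch A were 19.2 to 19.9% and 19.3 to 21.8%. Within batch B the trypsinogen shares were 8.76 and 11.5% for WT, 7.84 to 10.1% for Lep(ob/ob) and 5.98 to 10.4% for CCKRi. The lipase shares there were 13.2 and 17.1%, 16.6 to 24.0% and 12.2 to 18.9%, so both classes overlapped between all 3 groups. Amylases, whose reads are uncertain over near-identical copies, had 0.166 and 0.243% for WT, 0.0865 to 0.172% for Lep(ob/ob) and 0.151 to 0.261% for CCKRi in batch B, against 0.0411 to 0.0569% in batch A. Relative to trypsinogens, amylases and lipases together, the 9 members had a ratio of counts of 1.17 to 1.18 in WT mice of the first batch and 1.10 to 1.14 in the other 2. The ratio was 1.05 to 1.09 in batch A Lep(ob/ob) mice, and in batch B it was 0.856 to 0.928 without and 0.859 to 0.938 with an antagonist, so each obese mouse lay under each WT mouse. The trypsinogen and amylase counts in this denominator, and so the scale it sets, carry the doubt over related copies, whose sequences were not compared here. With the summed counts of those other enzymes as library size, edgeR called 4 members lower in Lep(ob/ob) than in WT, where 0.439% of all genes were called lower and 2.87% higher. The edgeR values were -0.50 for *Cela1* (SE 0.13, adjusted p = 0.0307), -0.41 for *Cela2a* (SE 0.07, adjusted p = 0.00236), -2.33 for *Cela3a* (adjusted p = 0.0127) and -1.44 for *Ctrc* (adjusted p = 0.0149). On this scale edgeR gave 2 members lower in CCKRi mice than in WT, *Cela2a* at -0.37 (adjusted p = 0.0262) and *Cela3a* at -2.16 (adjusted p = 0.0473), where 0.11% of genes were called lower and 4.74% higher. For CCKRi against Lep(ob/ob), edgeR called 0 members and 0% of genes in either direction, with 3 members and 21.4% of genes at an unadjusted p under 0.05, and the member median was 0.04. The scale shifts the median log2 fold change of all genes to 0.07, 0.65 and 0.57 in these 3 comparisons in the same order.

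**Figure D3:**
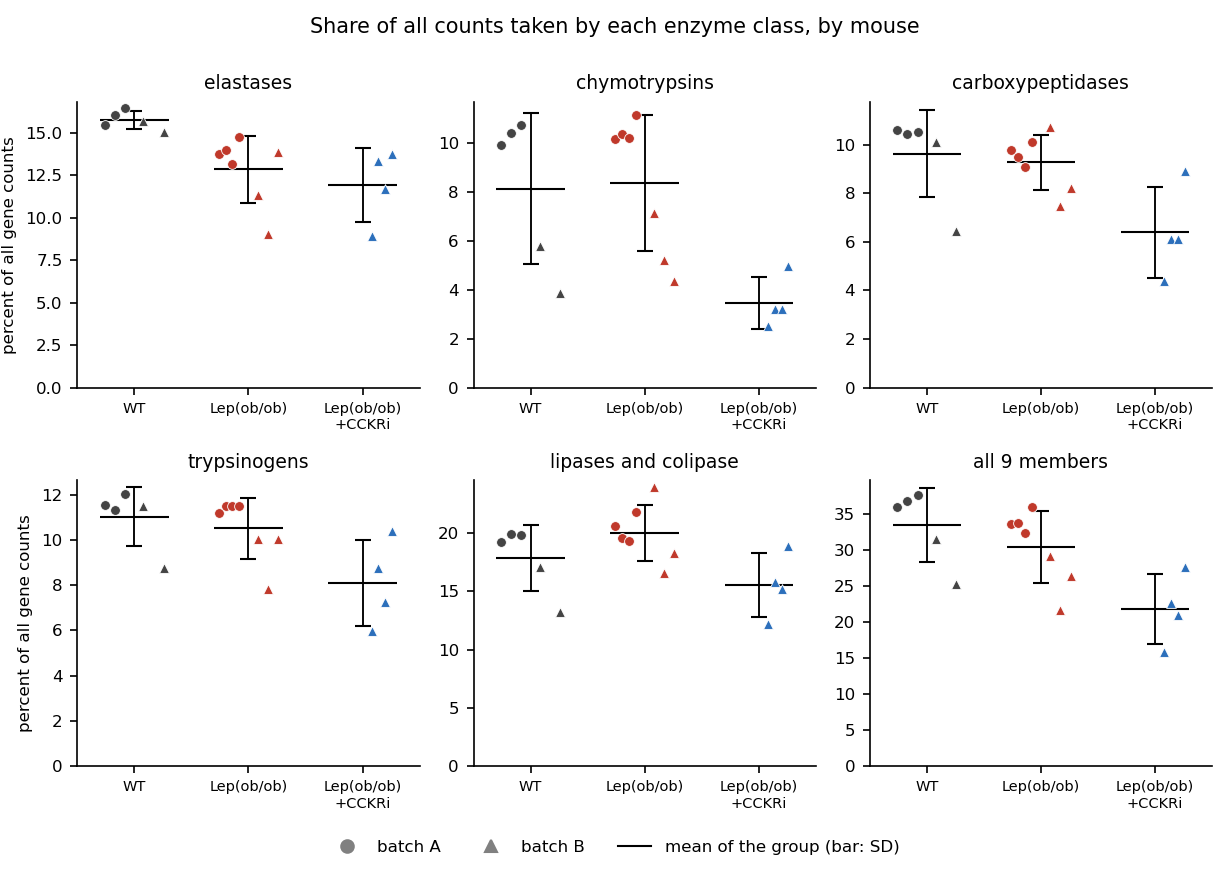
Percent of all gene counts (vertical axis) taken by each enzyme class in each of 16 mice, by group, with circles for batch A, triangles for batch B, a line at the group mean and a bar for the SD. Elastases lie at 15.1 to 16.5% in WT mice and at or under 14.7% in the obese mice, while chymotrypsins split by batch.

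Ratios between members do not depend on how libraries were scaled. They were described after their values had been seen and carry no test. Of 36 pairs, the ratio of read counts separated Lep(ob/ob) from WT mice in batch A for 31 and in batch B for 21, in the same direction in both for 18. Over all 62893720 pairs of the 11216 genes with at least 10 counts in every mouse, these shares were 21.9%, 34.3% and 9.23%. Among the 21 pairs without *Cela3a* and *Ctrc*, 17 separated the genotypes in batch A, 6 in batch B, a share under that of all pairs, and 4 in both in the same direction. *Cela1* over *Cela3b* was 3.06 to 3.14 in WT and 2.08 to 2.21 in batch A Lep(ob/ob) mice, and 5.86 and 6.85 against 3.16 to 4.72 in batch B. *Cela2a* over *Cela3b* was 3.76 to 3.83 against 2.48 to 2.71 in batch A and 4.21 and 4.34 against 2.94 to 3.18 in batch B. Both abundant elastases were thus scarcer in relation to *Cela3b* in each obese mouse than in each WT mouse of its batch. *Cela2a* over *Cpb1* was 1.41 to 1.50 against 1.22 to 1.26 in batch A and 0.942 and 1.18 against 0.798 to 0.873 in batch B. *Ctrb1* over *Ctrl* went the other way, with 2.93 to 2.99 in WT and 3.39 to 3.82 in batch A Lep(ob/ob) mice and 1.65 and 1.76 against 1.88 to 2.28 in batch B. In CCKRi mice these ratios were 4.29 to 4.96, 2.59 to 2.89, 0.841 to 1.11 and 1.59 to 1.73 in the same order. The second and the fourth lay under all untreated Lep(ob/ob) mice of batch B, and in all 7 of 36 pairs separated these groups, as did 8.73% of all gene pairs.

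**Figure D4:**
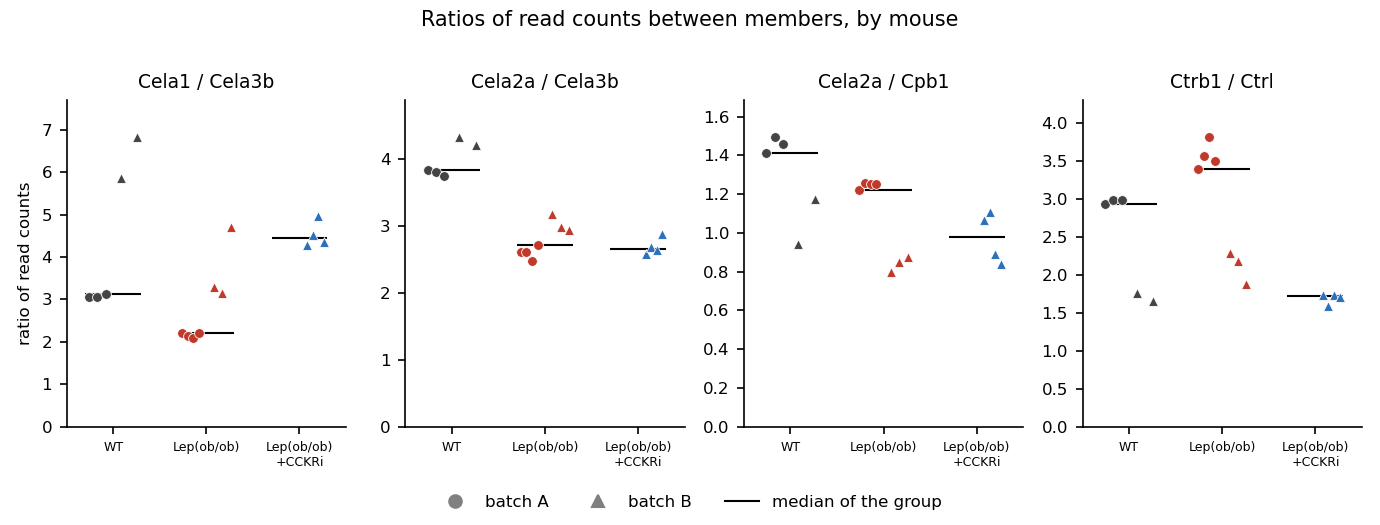
Ratio of read counts (vertical axis, from 0) between 4 pairs of members in each of 16 mice, by group, with circles for batch A, triangles for batch B and a line at the group median. In each batch the Lep(ob/ob) points lie under the WT points for *Cela1*/*Cela3b*, *Cela2a*/*Cela3b* and *Cela2a*/*Cpb1* and above them for *Ctrb1*/*Ctrl*.

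Across the 16 mice, which differ in batch, depth and the content of other cell types, the members did not follow 1 pattern. Pairwise Pearson correlations of log2 CPM among the 7 members other than *Cela3a* and *Ctrc* ranged from -0.35 to 0.97 with a median of 0.76 over 21 pairs. *Cela3a* and *Ctrc* correlated with each other at 0.86. Among 10871 genes, the nearest to *Cela3a* were *Zfp13* (0.91), *Pdia2*, a protein disulfide isomerase of acinar cells (0.88), *Ctrc*, *Josd2* and *Urah* (0.86 each). The nearest to *Ctrc* were *Slco4a1* (0.96), *1810018F18Rik* and *Zfp13* (0.95 each), *Lpin3* and *Lin37* (0.94 each). Of the 10 genes nearest to each member, digestive enzymes made up 5 for *Ctrl*, 4 each for *Cpa1* and *Cpb1*, 3 each for *Cela3b* and *Ctrb1*, 2 for *Cela2a*, 1 for *Cela3a* and 0 for *Cela1* and *Ctrc*.

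Related genes of the acinar cell gave mixed results in Lep(ob/ob) against WT. Of 12 trypsinogen genes, 4 rose and 0 fell, led by *1810009J06Rik* (log2 fold change 5.71), *Gm2663* (4.96) and *Prss1* (3.72). Trypsinogen genes are related copies whose sequences were not compared here, and the counting could have split their reads. The most counted trypsinogen gene, *2210010C04Rik*, had -0.52 and did not pass. Of 3 amylase genes tested, *Amy2a5* fell (-1.05), with the same doubt over copies, and *Amy2b*, the most counted, had -0.57 and did not pass. Of 6 lipase genes and colipase, *Pla2g1b*, pancreatic phospholipase A2, fell (-1.01), while the most counted, *Pnlip*, had -0.04. The ribonuclease gene *Rnase1* had -0.17, and neither of these passed. Of 10 other carboxypeptidases, *Cpe*, the prohormone-processing enzyme of endocrine cells (1.81), and *Cpq* (0.93) rose and *Cpm* fell (-0.63). Of 6 genes of zymogen activation and inhibition none passed in edgeR, with 2 at an unadjusted p under 0.05. Of 6 granule proteins *Pdia2* fell (-0.75), and of 7 acinar transcription factors *Ptf1a*, which drives acinar enzyme genes, fell (-1.03). Of 4 secretagogue receptors *Chrm1* rose (1.09) and *Sctr*, the secretin receptor, fell (-1.39).

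In CCKRi mice against WT, 4 trypsinogens were higher (*1810009J06Rik* 7.48, *Gm2663* 6.94 and *Prss1* 4.60 among them) and *Try4* was lower (-1.35). *Pla2g1b* (-1.88), the granule membrane protein gene *Gp2* (-1.33) and the transcription factor gene *Gata4* (-0.91) were lower, and the carboxypeptidases *Cpb2* (3.56) and *Cpe* (2.08) were higher. Against untreated Lep(ob/ob) mice edgeR called 0 genes in any of these lists, with 3 trypsinogens, 3 lipase genes, 4 genes of zymogen activation and inhibition, 2 other carboxypeptidases, 2 granule proteins and 1 receptor at an unadjusted p under 0.05.

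Markers of further cell types were counted in the same fit. In Lep(ob/ob) against WT, the duct marker *Krt7* rose (1.03), the mast cell list had *Kit* lower (-1.19) and its other 4 genes at 0.94 to 1.40 without passing (list median 1.10), and 0 of 5 lymph node, 0 of 5 macrophage and 0 of 6 stroma and endothelium markers passed in edgeR, with 0 at an unadjusted p under 0.05 in each of these last 3 lists. Against untreated Lep(ob/ob) mice, CCKRi mice had 0 of these markers called by edgeR, but 4 of 5 macrophage markers (list median -1.19) and 3 of 6 stroma and endothelium markers (median -0.66) had an unadjusted p under 0.05, beside the median of -0.51 over the 9 members. In CCKRi mice against WT, 6 of 8 islet markers were higher, led by *Iapp* (3.68), *Ppy* (3.41) and *Ins2* (2.85), as was *Krt7* (1.23), and *Krt19* was lower (-1.15). Their part in the differences of the members was not tested.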

How the data were processed

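Pancreatic RNA of 16 mice (5 WT, 7 Lep(ob/ob) and 4 CCKRi) was sequenced after poly(A) selection, in 2 batches named by the labels. Reads were trimmed by the authors (Trim Galore 0.6.7, cutadapt 3.5) and mapped with STAR 2.7.9 against mm10, and the authors deposited raw read counts per gene for 24411 genes. The read counter, its strand and multi-mapping settings and its gene models are not given in the sources used here. The deposited normalized counts (17548 genes, a signal) are these counts divided by 1 size factor per mouse, which the authors obtained with DESeq2. They were used for values per mouse, whereas tests used the raw counts. No column of values was without a sample (0).

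Each comparison used edgeR 4.0.16 (quasi-likelihood test, filterByExpr, TMM) with limma 3.58.1 in R 4.3.3, on all 16 mice with group and batch as terms and Benjamini-Hochberg adjustment over 13660 genes at 0.05. P-values measure the spread between these mice. The alternatives were DESeq2 1.42.0, no batch term, other scalings and filters, each batch or compound alone, each mouse left out, and 4 mice with high adipocyte markers, named in an earlier analysis, left out. The relative scale used the summed counts of trypsinogens, amylases and lipases as library size. Fits were tested on simulated data. CPM correlations used a prior count of 2 and genes with a mean log2 CPM of at least 1. Total counts of 9.87 to 34.5 M (units of 1000000) left *Cela3a* as the one member limited by depth. Sequence comparisons used Python 3.11.15, pandas 2.3.3, numpy 2.4.6 and biopython 1.88, figures matplotlib 3.10.9.

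All 9 members were to be named. From other lists, genes past the threshold were named, at most the 3 with the largest change per list and comparison, with the most counted gene of each enzyme class and the 5 genes most correlated with each member called. The members, lists and the 4 mice left out were chosen with earlier results of these data known. A result for 1 listed marker is not reported here.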

Additional observations from a re-analysis of the deposited data

Results flagged for a closer look

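*Cela1* in Lep(ob/ob) mice and *Cela3a* in CCKRi mice each had 1 mouse far under the rest, by Dixon's gap over the range. For *Cela1* the gap ratio was 0.623 (critical value 0.568 for 7 mice), with 0.449 M normalized counts in mouse 463 against 0.957 to 1.51 M in the others. For *Cela3a* it was 0.835 (critical value 0.829 for 4 mice), with 30.7 normalized counts in mouse 69 against 60.4 to 68.9. Over 27 combinations of gene and group, 2 passed, and chance gives about 1 in 20. These mice had the highest adipocyte marker sums of their groups (0.247 and 0.252% of counts), and the part of this in their values was not tested.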

How the results depend on the processing

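Counts of members are given with the share of all genes called lower in that fit. For Lep(ob/ob) against WT the count lower (2, 3.14%) became 4 relative to the other digestive enzymes (0.439%) and 1 in batch B alone (0.0356%). For CCKRi against Lep(ob/ob) the count lower (0, 0.0293%) became 6 with DESeq2 without batch (9.77%), while edgeR without the batch covariate kept 0 (1.76%). For CCKRi against WT the count lower (1, 1.35%) became 6 without the batch covariate (5.37%), 3 with DESeq2 with batch (2.7%), 9 with DESeq2 without batch (9.67%), 2 relative to the other enzymes (0.11%), 2 with only the groups compared (0.721%), 0 with proglumide alone (0.38%), 0 with lorglumide alone (0.717%) and 2 without the 4 mice with high adipocyte markers (3.26%). The cause was not tested. The median share of the 9 members was 28.5% in WT mice of batch B alone (all: 35.97%) and 26.5% in untreated Lep(ob/ob) mice of batch B alone (all: 32.4%).

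With each mouse left out in turn, the counts lower stayed at 2 to 2, 0 to 0 and 1 to 1 in the 3 comparisons, the counts higher at 0 to 0, and the median shares ranged from 33.8 to 36.4%, 30.8 to 33.1% and 21.0 to 22.6%. *Cela3a* ranged from -2.56 to -1.82 and *Ctrc* from -1.56 to -1.23 for Lep(ob/ob) against WT, both called in 12 of 12. Chosen after seeing the data, leaving out single mice of batch B moved the ratio of the *Cela3a* means there from 12.1 to between 7.07 and 17.2. A further 86 recomputed counts and shares gave the same outcome, and 0 values that had been called changed sign. A mitochondrial denominator could not be run, as the raw table holds 0 such genes. No paired analysis was possible because each mouse has its own number and the groups share none.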

Other observations

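*Ctrcos*, an antisense gene on the plus strand (chr4:141844321-141846990, GRCm38) that overlaps the *Ctrc* gene by 2039 bases but 0 exonic bases, was chosen after its values had been seen. It had 70.6 to 302 normalized counts in WT, 28.4 to 121 in untreated Lep(ob/ob) and 93.6 to 166 in CCKRi mice, so the ranges overlapped. Whether the counting used strand is not given in the sources used here, and without strand its reads and those of intronic *Ctrc* RNA cannot be told apart.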
